A study of Mus musculus with 12 samples.

Results

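A set of 9 genes of glucose production and of the response to insulin were followed in mouse liver treated with esculetin, a plant coumarin, and in a macrophage line treated with the same compound. The 9 genes, out of 55357 gene identifiers in each count table, were chosen by name as Pck1, G6pc1, Fbp1, Pdk4, Irs1, Irs2, Igfbp1, Foxo1 and Ppargc1a. Pdk4 was chosen from the measured values, since it was known to be lower in the esculetin livers, so its liver values are a description and carry no test. The rule names no measured value of the other 8, but the whole set was chosen with earlier results of these data known.

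RNA-seq was done on 12 libraries in 4 groups of 3. The liver came from male wild-type C57BL/6J mice of 8 to 9 weeks, gavaged for 7 days with 90 mg/kg/d esculetin or with its vehicle, 2.5% Tween-80. Both liver groups ate a control diet with 10% of kcal from fat for 4 days and then a high-fat diet with 60% for 3 days, so no group stands for a mouse without the high-fat diet. Each liver sample was a pool of 2 mice. The cells were RAW264.7, a mouse macrophage line, which received 25 µg/mL DIL-oxLDL, a dye-labelled oxidized lipoprotein, for 24 h in all libraries. They received it with 40 µg/mL esculetin or with its solvent, DMSO, alone. Nothing in the labels says that the 3 cell samples of a group came from separate cultures, so p-values from them measure only the spread between these samples, which may be technical.

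The liver releases glucose between meals by making it from lactate, amino acids and glycerol. Pck1 encodes the cytosolic phosphoenolpyruvate carboxykinase that commits oxaloacetate to this route, Fbp1 the fructose-bisphosphatase further along it, and G6pc1 the catalytic subunit of glucose-6-phosphatase, which frees the sugar for release. Pdk4 encodes a kinase that switches off pyruvate dehydrogenase and so spares pyruvate from oxidation, and it is known to be high in fasting. After a meal, insulin acts through the adaptor proteins of Irs1 and Irs2 and the kinase AKT, which drives the transcription factor FOXO1 out of the nucleus. FOXO1 and its coactivator PGC-1α, encoded by Ppargc1a, are known to activate Pck1, G6pc1, Irs2, Pdk4 and Igfbp1, a secreted binding protein of insulin-like growth factors that insulin lowers within hours.

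The promoters of Pdk4, Pck1, G6pc1 and Igfbp1 are shown because Pdk4 carries the liver difference and the other 3 genes are textbook targets of fasting signals, insulin or cAMP. Each sequence is the 250 bases before the start that RefSeq gives the gene, read 5′ to 3′ on the strand of the gene from a table on build GRCm38.p6, and each was found once, letter for letter, in build GRCm39, whose coordinates are given. The capitals mark matches to 3 short motifs searched on both strands, which are CAAAACA, the core of insulin response elements, GTAAACA, a forkhead motif, and TGACGT, part of the cAMP response element. Among 32851 windows of the same length before gene starts, 5.56% held the first, 3.17% the second and 6.47% the third. The GENCODE annotation begins these genes further upstream, so that the last 61 bases printed for Pdk4, 122 for Pck1, 173 for G6pc1 and 136 for Igfbp1 lie inside its gene bounds. G6pc1 is listed in the RefSeq table under its older symbol G6pc.
Pdk4, chr6:5496279-5496528, minus strand: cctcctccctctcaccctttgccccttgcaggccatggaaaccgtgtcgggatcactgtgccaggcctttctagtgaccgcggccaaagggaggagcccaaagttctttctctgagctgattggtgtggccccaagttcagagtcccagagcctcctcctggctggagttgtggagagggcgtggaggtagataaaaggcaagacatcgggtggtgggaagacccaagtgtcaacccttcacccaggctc
Pck1, chr2:172994616-172994865, plus strand: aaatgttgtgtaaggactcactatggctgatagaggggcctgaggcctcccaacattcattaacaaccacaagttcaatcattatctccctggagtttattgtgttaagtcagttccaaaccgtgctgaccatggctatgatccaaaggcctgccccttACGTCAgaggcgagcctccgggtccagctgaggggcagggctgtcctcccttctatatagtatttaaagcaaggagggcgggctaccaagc
G6pc1, chr11:101258292-101258541, plus strand: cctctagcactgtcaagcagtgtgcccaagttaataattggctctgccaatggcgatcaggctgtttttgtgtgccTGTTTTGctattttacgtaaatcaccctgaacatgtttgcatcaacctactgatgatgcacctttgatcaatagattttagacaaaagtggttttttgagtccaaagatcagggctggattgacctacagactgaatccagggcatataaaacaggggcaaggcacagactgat
Igfbp1, chr11:7147537-7147786, plus strand: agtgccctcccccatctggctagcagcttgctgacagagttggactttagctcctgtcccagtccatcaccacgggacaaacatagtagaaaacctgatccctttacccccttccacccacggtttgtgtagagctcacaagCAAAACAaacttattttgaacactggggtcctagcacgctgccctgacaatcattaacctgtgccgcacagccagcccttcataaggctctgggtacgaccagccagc

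In Pck1 the capitals are the reverse complement of the cAMP motif, 91 to 86 bases before the start. In G6pc1 they are the reverse complement of the insulin response core, at 174 to 168 bases, and in Igfbp1 that core itself, at 108 to 102 bases. The window of Pdk4 held none of these letters. All 9 genes had a window in the table. Of those not printed, Irs1 held the insulin response core at 2 places and Irs2 at 1, Ppargc1a held the cAMP motif once, and Fbp1 and Foxo1 held none of the 3 motifs. A match is a description of letters and not a measured binding site.

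The libraries held 13752842 to 20346460 counts. Levels are given as CPM, counts scaled to a common library size with factors from the trimmed mean of M-values. In the liver 12813 genes passed the filter on low counts, and in the cells 13277. In the liver, principal component 1, with 39.9% of the variance, set control replicate 1 apart at -47.9 from the other 5, which lay between -3.44 and 19.4. Hepatocyte markers identified the tissue, since all 8 were present and summed to 115082 to 135303 CPM in the control livers and 107604 to 132840 CPM in the esculetin livers. The 10 Kupffer cell markers summed to 530 to 670 CPM in control and 522 to 581 CPM in esculetin livers, the 5 blood markers to 167 to 837 and 278 to 547 CPM, and the 6 adipose markers to 11.7 to 38.7 and 12.5 to 53.1 CPM. Adipose tissue also expresses Pdk4, Pck1, Angptl8, Scd1 and Fasn. The pancreas list reached at most 0.123 CPM in any liver library, with Ins1, Ins2 and Gcg, the hormone genes of the islet, at 0. Of the markers in these lists none was called between the liver groups, and their part in the results was not tested. In the macrophage line the 8 macrophage markers summed to 2104 to 2333 CPM without and 5489 to 8457 CPM with esculetin, and 1 of them, Mrc1, did not pass the filter, at no more than 2 counts in any control and 6 in any esculetin library.

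In the liver, Pck1, G6pc1 and Fbp1, the enzymes of glucose production among the 9 genes, were not called as changed by esculetin in edgeR, DESeq2 or limma-voom, and Pdk4 was lower in all 3 esculetin samples than in any control sample. Of the 9 genes, all passed the filter, 6 had a positive and 3 a negative log2 fold change, and their median was 0.09, where the median of all tested genes was -0.02. Of the 9 genes 1 passed an adjusted p-value of 0.05 and so was called, Pdk4 itself, where 0.0859% of all tested genes were called, and since Pdk4 was chosen on this difference nothing is read from that count. The count was 0 without control replicate 2, without esculetin replicate 1 or without esculetin replicate 3, and the median of the 9 was 0.30 without control replicate 2. Before adjustment 2 of the 9, Pdk4 and Pck1, were under 0.05, against 8.37% of all tested genes. The groups did not overlap for 1 of the 9, again Pdk4, against 14.5% of all tested genes. Both of these counts hold Pdk4, which was chosen on its liver values, so nothing is read from them either. In bulk tissue, fewer cells of a type and less RNA per cell cannot be told apart.

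**Figure D1:**
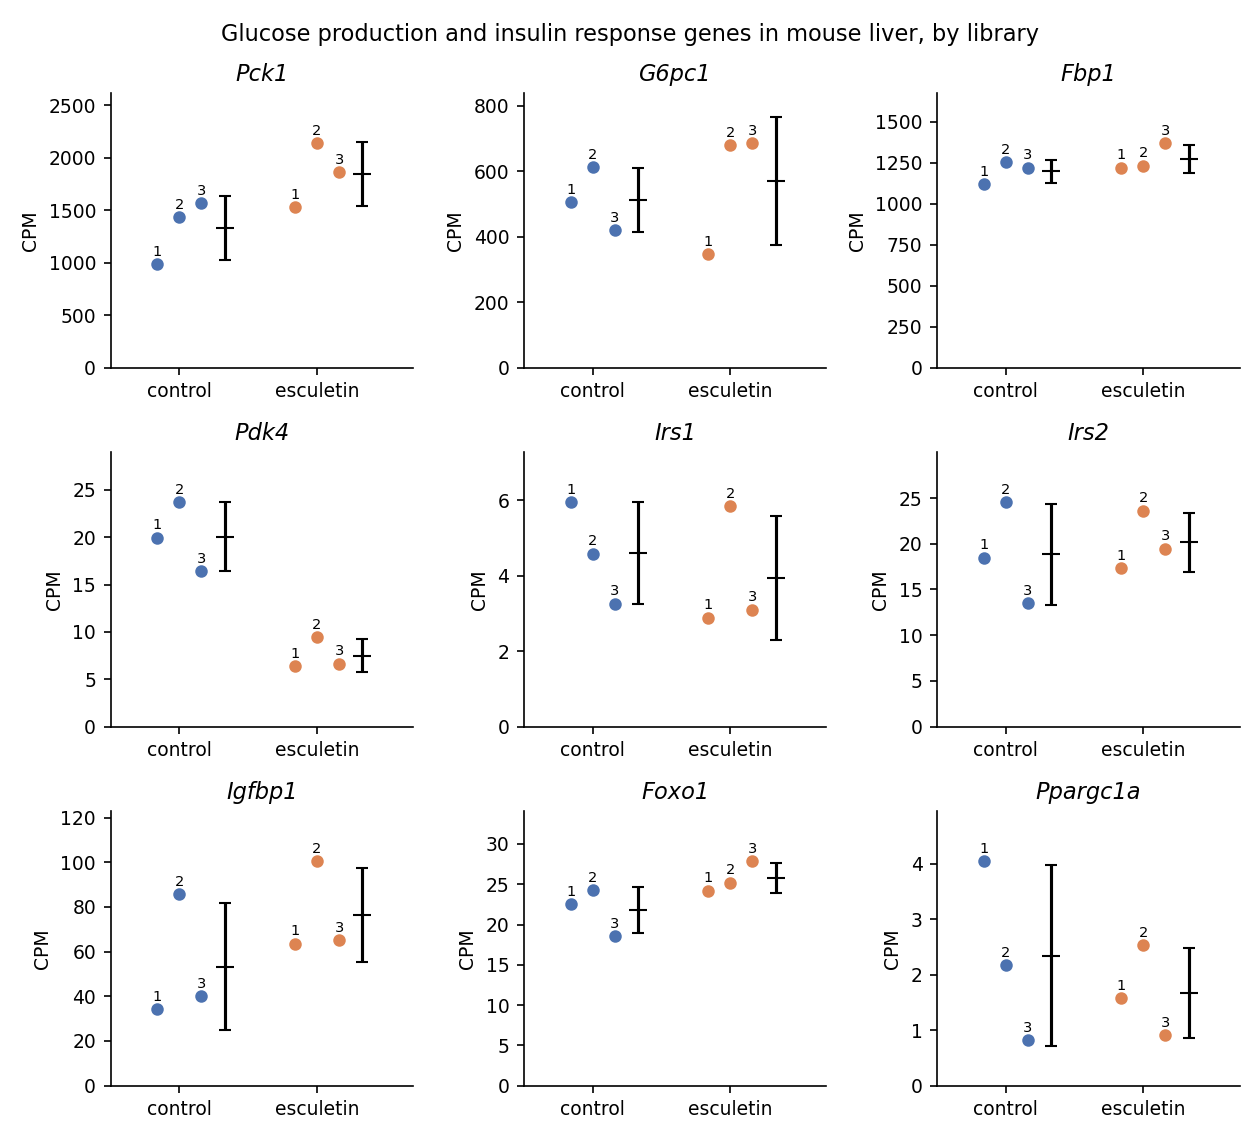
Level of each of the 9 genes in the 6 liver libraries, in CPM on linear axes that start at 0, with blue points for control and orange points for esculetin, each numbered by replicate; the black marks are the mean and SD of 3 libraries. Pdk4 is the only panel in which the groups do not overlap, with 16.4 to 23.7 CPM in control and 6.38 to 9.48 CPM in esculetin livers.

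Pdk4 (ENSMUSG00000019577, GRCm39 chromosome 6, 5483097 to 5496339) encodes the pyruvate dehydrogenase kinase that fasting and fatty acids induce. It had 19.96, 23.73 and 16.43 CPM in the control livers, from 325, 481 and 282 counts. In the esculetin livers it had 6.38, 9.48 and 6.66 CPM, from 117, 146 and 103 counts. The highest esculetin sample thus lay below the lowest control sample, and the mean went from 20.04 ± 3.65 to 7.51 ± 1.71 CPM (SD, n = 3). The log2 fold change was -1.42 (SE 0.20), which is 0.374 times the control level. With 1 library left out at a time it ran from -1.63, without esculetin replicate 2, to -1.28, without control replicate 2. Without control replicate 1, the sample that stands apart, it was -1.42, and that sample held neither the highest nor the lowest control value.

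No other gene of the pyruvate dehydrogenase machinery was called. Of 13 genes in a list of the complex, its other kinases, its phosphatases and the mitochondrial pyruvate carrier, 12 were tested in the liver and 0 were called by edgeR, with 0 at an unadjusted p-value under 0.05 and 0 called by DESeq2 or limma-voom. Their median log2 fold change was -0.01, with 6 higher and 6 lower. Pdk2, the kinase that is abundant in fed liver, had 112, 133 and 160 CPM in control and 162, 161 and 154 CPM in esculetin livers, a log2 fold change of 0.23 (edgeR, adjusted p = 0.668) that was 0.12 without control replicate 1 and 0.36 without control replicate 3. Pdk1, another kinase of the family, had 91.3, 88.7 and 81.6 CPM against 74.8, 81.0 and 73.0 CPM, a log2 fold change of -0.19 (edgeR, adjusted p = 0.668). The groups of Pdk1 narrowly did not overlap. Pdp2, a phosphatase that reverses the kinases, and Dlat, the acetyltransferase subunit, had log2 fold changes of -0.19 and -0.16 with overlapping groups. That of Pdp2 was -0.07 without control replicate 2, and that of Dlat was -0.0035 without control replicate 1 and -0.27 without control replicate 3.

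By a fixed rule, the 5 genes whose log2 CPM followed that of Pdk4 most closely over the 6 liver libraries were taken out of 6758 with a mean of at least 10 CPM. Those reported here were Ces1f, with a Pearson r of 0.998, Cyp3a11 with 0.992, Ocel1 with 0.991 and Ugt1a5 with 0.990. Cyp3a11 and Ugt1a5 encode enzymes of drug metabolism and Ces1f a liver carboxylesterase. The 6 points share their treatment, so genes lower in the esculetin group come first in such a ranking, and r is given as a description only. Their log2 fold changes ran from -1.60 for Ugt1a5 to -0.42 for Ocel1.

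Of Pck1, G6pc1 and Fbp1, Pck1 (chromosome 2, 172994744 to 173001066) had the largest log2 fold change in liver. It had 984, 1438 and 1568 CPM in the control livers and 1531, 2142 and 1866 CPM in the esculetin livers. Control replicate 1, the sample that stands apart, was the lowest, and the groups overlapped because control replicate 3 exceeded esculetin replicate 1. The log2 fold change was 0.47 (SE 0.19; adjusted p = 0.520, edgeR). It was 0.30 without control replicate 1 and 0.59 without control replicate 3, and was not called in any of the 6 fits with 1 library left out.

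G6pc1 (chromosome 11, 101258369 to 101268729) varied more within the esculetin group than between the groups. It had 507, 612 and 419 CPM in control livers and 346, 679 and 687 CPM in esculetin livers, so that the esculetin group held both the lowest and the highest sample. The log2 fold change was 0.15 (SE 0.23; adjusted p = 0.883, edgeR). Without esculetin replicate 1 it was 0.40, and without esculetin replicate 3 it was -0.01. Fbp1 (chromosome 13, 63012567 to 63036263) had the smallest SE of the 9 genes, with 1120, 1255 and 1221 CPM in control and 1219, 1233 and 1371 CPM in esculetin livers. Its log2 fold change was 0.09 (SE 0.13; adjusted p = 0.880, edgeR), from 0.02 to 0.12 with 1 library left out, and the groups overlapped.

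The list of other enzymes and transporters of glucose output was read beside them. Of 18 listed genes, 16 were tested and 0 were called by edgeR, against 0.0859% of all tested genes. Of the 16, 9 were higher and 7 lower, with a median log2 fold change of 0.08. An unadjusted p-value under 0.05 was found for 2, against 8.37% of all tested genes. DESeq2 called Got1 alone and limma-voom 0. Got1, the cytosolic aspartate aminotransferase of the malate-aspartate shuttle, had 187, 139 and 202 CPM in control and 256, 289 and 272 CPM in esculetin livers. Its groups did not overlap, and its log2 fold change was 0.63 (SE 0.15; adjusted p = 0.209, edgeR). Mdh1, the cytosolic malate dehydrogenase of the same shuttle, had 700, 821 and 897 CPM against 1021, 1023 and 999 CPM, a log2 fold change of 0.33 (edgeR, adjusted p = 0.525). Pgk1, an enzyme shared by glycolysis and glucose production, also had groups without overlap, with 295, 363 and 376 CPM against 410, 396 and 422 CPM. Of the 16 tested genes these were the 3 without overlap, all with esculetin higher, against 14.5% of all tested genes, so that their number is near the background.

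Glycogen, the store from which the liver frees glucose first, was covered by 17 listed genes. Of these 16 were tested and 0 called by edgeR, DESeq2 or limma-voom, where edgeR called 0.0859% of all tested genes. Among the 16, 9 were higher and 7 lower, with a median log2 fold change of 0.03. Only 1 had an unadjusted p-value under 0.05, against 8.37% of all tested genes. Pygl, the liver glycogen phosphorylase, had 379, 431 and 386 CPM in control and 472, 455 and 475 CPM in esculetin livers, without overlap and with a log2 fold change of 0.23. Ppp1r3c, which targets a phosphatase to glycogen, had 197, 232 and 210 CPM in control livers and 86.1, 177 and 205 CPM in esculetin livers, where replicate 1 alone lay far below the rest. Ppp1r3g, a regulator of the same phosphatase, stood on 4 to 55 counts per library, and its log2 fold change of 1.39 was 0.01 without esculetin replicate 2.

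Igfbp1 (chromosome 11, 7147651 to 7152546) is the gene of a liver-secreted protein that insulin represses. It had 34.2, 85.8 and 39.9 CPM in control livers and 63.6, 100.6 and 65.0 CPM in esculetin livers. Replicate 2 was the highest sample of each group, and control replicate 2 lay above esculetin replicates 1 and 3, so that the groups overlapped. The log2 fold change was 0.52 (SE 0.29; adjusted p = 0.664, edgeR). It was 1.04 without control replicate 2 and 0.26 without esculetin replicate 2, and Igfbp1 was not called in any of the 6 fits without a library. Igfbp1 was called when replicate number was added to the edgeR model (adjusted p = 0.0377). It was also called by edgeR with every detected gene kept (adjusted p = 0.0206).

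The genes of the insulin receptor adaptors varied more between samples than between groups. Irs1 (chromosome 1, 82210822 to 82269338) had 5.96, 4.59 and 3.26 CPM in control and 2.89, 5.84 and 3.11 CPM in esculetin livers, a log2 fold change of -0.23 (SE 0.31; adjusted p = 0.875, edgeR). It was -0.63 without esculetin replicate 2 and -0.0038 without control replicate 1. Irs2 (chromosome 8, 11034681 to 11059499), which fasting is known to induce, had 18.5, 24.6 and 13.5 CPM against 17.3, 23.6 and 19.5 CPM. The esculetin samples all lay inside the control range, and the log2 fold change was 0.09 (SE 0.20; adjusted p = 0.928, edgeR). Replicate 2 was again the highest sample of each group for Irs2, as for Igfbp1.

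Foxo1 (chromosome 3, 52175757 to 52260642), the transcription factor that insulin restrains, had 22.5, 24.2 and 18.6 CPM in control and 24.2, 25.2 and 27.9 CPM in esculetin livers. The groups overlapped only because control replicate 2, at 24.23 CPM, exceeded esculetin replicate 1, at 24.20 CPM. The log2 fold change was 0.24 (SE 0.14; adjusted p = 0.670, edgeR), and it was 0.12 without control replicate 3. Ppargc1a (chromosome 5, 51611592 to 51725068), the coactivator gene, stood on 14 to 66 counts per library. It had 4.05, 2.17 and 0.816 CPM in control and 1.58, 2.53 and 0.906 CPM in esculetin livers, and replicate 3 was the lowest of each group. Its log2 fold change of -0.48 (SE 0.51; adjusted p = 0.823, edgeR) became 0.14 without control replicate 1. For these 8 genes, a p-value that misses the threshold does not show that the groups were alike.

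**Figure D2:**
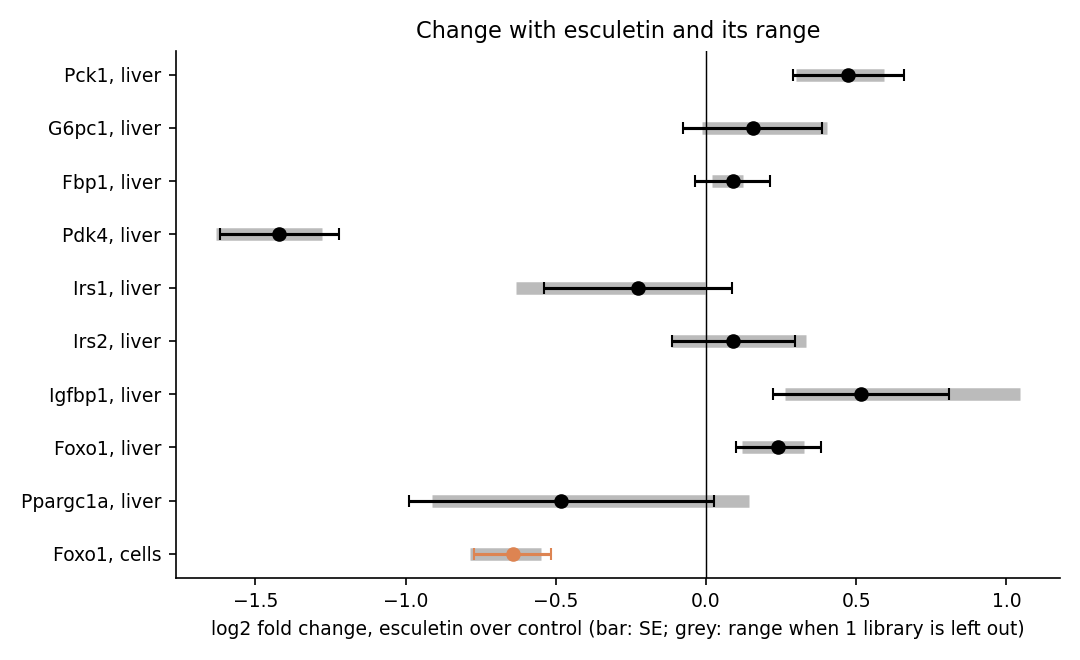
Log2 fold change of esculetin over control (x axis) for the 9 genes in liver (black) and for Foxo1 in RAW264.7 cells (orange), with the SE as a thin bar and, in grey, the range of the value when each of the 6 libraries is left out in turn. The grey ranges of Pdk4 in liver, from -1.63 to -1.28, and of Foxo1 in cells, from -0.79 to -0.55, lie furthest below 0, while those of G6pc1, Irs2 and Ppargc1a cross it.

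Levels of different genes were compared per kb of exon, where the length is that of all annotated exons of a gene together. The transcript expressed may be shorter, so the order depends on this length. By CPM alone Pck1, at a mean of 1330 in the control livers, stood above Fbp1, at 1199. In the control livers the order of mean CPM per kb was Fbp1 at 510, Pck1 at 359, G6pc1 at 211, Igfbp1 at 31.3, Pdk4 at 5.28, Irs2 at 2.56, Foxo1 at 2.35, Irs1 at 0.493 and Ppargc1a at 0.332. The ranges of Irs2 and Foxo1 overlapped, as did those of Irs1 and Ppargc1a, and the other neighbours in the order did not overlap. In the esculetin livers the 4 highest genes kept their order, with overlapping ranges for Fbp1 at 542 and Pck1 at 499. Pdk4, at 1.98 CPM per kb, stood there below Foxo1 at 2.78 and Irs2 at 2.74, and its range overlapped with that of Irs2.

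The genes around the insulin receptor were read next, from the receptor inward. Of 33 listed genes of insulin signalling, 32 were tested in liver and 0 were called by edgeR or limma-voom. EdgeR called 0.0859% of all tested genes. In the list 14 were higher and 18 lower, with a median log2 fold change of -0.07. An unadjusted p-value under 0.05 was found for 1, against 8.37% of all tested genes. DESeq2 called 1, Grb10. Insr, the receptor itself, had 61.7, 57.4 and 38.3 CPM in control and 46.4, 38.0 and 42.3 CPM in esculetin livers, a log2 fold change of -0.31 (edgeR, adjusted p = 0.644) that was -0.18 without control replicate 1 and -0.51 without control replicate 3. Grb10, an adaptor that damps the receptor, had 2.03, 3.40 and 2.39 CPM against 7.36, 5.71 and 4.46 CPM. The groups of Grb10 did not overlap, and its log2 fold change of 1.16 (SE 0.27) had an edgeR adjusted p-value of 0.210. Trib3, a pseudokinase that binds AKT, and Ptpn1, a phosphatase of the receptor, had log2 fold changes of 0.54 and -0.22 with adjusted p-values of 0.636 and 0.670 from edgeR, and that of Trib3 was 0.35 without control replicate 2 and 0.83 without control replicate 3.

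The insulin-like growth factor system, to which Igfbp1 belongs, had 9 of 10 listed genes tested and 0 called by edgeR, DESeq2 or limma-voom. Of all tested genes edgeR called 0.0859%. In the list 1 gene had an unadjusted p-value under 0.05, against 8.37% of all tested genes. The median log2 fold change was 0.06, and it was -0.13 without control replicate 1. Igfbp3, the main carrier protein of IGF-1 in serum, had 22.9, 22.9 and 29.8 CPM in control and 18.3, 17.7 and 18.1 CPM in esculetin livers, without overlap, and a log2 fold change of -0.48 (edgeR, adjusted p = 0.354). Igfbp4 had 909, 1232 and 1301 CPM against 1473, 1368 and 1420 CPM, also without overlap, and a log2 fold change of 0.31 (edgeR, adjusted p = 0.627) that was 0.17 without control replicate 1. Igf1, the hormone gene, had a log2 fold change of 0.23 with overlapping groups.

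The genes that insulin and feeding induce through SREBP-1c and ChREBP included the called gene of the pathway lists in liver, Angptl8. Of 17 listed genes, 16 were tested, 14 had a negative log2 fold change and 2 a positive one, and the median was -0.36, against -0.02 over all tested genes, of which 53.5% were lower. Of the 16 genes 1 was called, against 0.0859% of all tested genes, 8 were at an unadjusted p-value under 0.05, all lower, against 8.37%, and 7 had groups without overlap, all lower, against 14.5%. Angptl8, a secreted inhibitor of lipoprotein lipase that feeding induces, had 66.2, 47.8 and 43.1 CPM in control and 13.2, 18.4 and 18.2 CPM in esculetin livers. Its log2 fold change was -1.66 (SE 0.18; adjusted p = 0.0133, edgeR), and the call was lost without control replicate 2, esculetin replicate 1 or esculetin replicate 3, when 0 genes of the whole table were called. Angptl8 lies inside Dock6, which is on the other strand and had 194 to 337 counts per liver library, and whether the counting used strand is not given in the sources used here.

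Scd1, the stearoyl-CoA desaturase, had 10478, 8992 and 9100 CPM in control and 3742, 5773 and 3965 CPM in esculetin livers. Its log2 fold change was -1.08 (SE 0.18), and its edgeR adjusted p-value of 0.0527 just missed the threshold, while DESeq2 and limma-voom called it. Me1, the malic enzyme that supplies NADPH for fat synthesis, had 190, 183 and 159 CPM against 89.5, 121 and 108 CPM, a log2 fold change of -0.74 (edgeR, adjusted p = 0.0839). DESeq2 called both Me1 and Fasn. Fasn, the fatty acid synthase, had 515, 401 and 422 CPM against 205, 373 and 244 CPM, a log2 fold change of -0.70 (edgeR, adjusted p = 0.310). None of the control samples of these 4 genes fell below the highest esculetin sample. Srebf1, which encodes SREBP-1c, had a log2 fold change of -0.04. It was named after its values were seen, as a textbook target of insulin in this list. The list was drawn up with the fall of several fat synthesis genes in these samples known, so its count is no independent evidence of a direction.

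Genes induced in fasting or linked to FOXO1 had log2 fold changes of both signs. Of 20 listed and tested genes 0 were called by edgeR or limma-voom and 1, Fgf21, by DESeq2, 8 were higher and 12 lower with a median log2 fold change of -0.07, 8 were at an unadjusted p-value under 0.05, of which 3 were higher and 5 lower, against 8.37% of all tested genes, and 9 had groups without overlap, against 14.5%. Fgf21, the fasting hormone of liver, had 3.99, 4.69 and 2.86 CPM in control and 0.272, 1.69 and 0.971 CPM in esculetin livers, from as few as 5 counts. Its log2 fold change was -2.00 (SE 0.46; adjusted p = 0.186, edgeR). Klf15, a factor that raises amino acid use in fasting, had 109, 119 and 132 CPM against 142, 178 and 173 CPM, a log2 fold change of 0.45 (edgeR, adjusted p = 0.319). Trib1, a pseudokinase that lowers hepatic fat synthesis, had 58.8, 34.2 and 29.0 CPM against 27.7, 22.5 and 21.4 CPM, and its log2 fold change of -0.77 was -0.40 without control replicate 1. Lpin1, a coactivator and phosphatase induced by glucocorticoids, had a log2 fold change of 0.55 (edgeR, adjusted p = 0.458) and overlapping groups.

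The signals that oppose insulin were covered by 26 genes of glucagon, cAMP and glucocorticoid action, of which 24 were tested and 0 called by edgeR, DESeq2 or limma-voom, with 10 higher, 14 lower, a median log2 fold change of -0.06 and 5 at an unadjusted p-value under 0.05, against 8.37% of all tested genes. Tsc22d3, a direct glucocorticoid target, had 105, 150 and 184 CPM in control and 155, 256 and 320 CPM in esculetin livers, a log2 fold change of 0.73 (edgeR, adjusted p = 0.449) that was 0.48 without esculetin replicate 3. Per1, a clock gene that glucocorticoids also induce, had 2.46, 8.44 and 5.07 CPM against 6.81, 11.8 and 14.2 CPM, a log2 fold change of 1.02 (edgeR, adjusted p = 0.488) that was 0.68 without control replicate 1. Nr4a1, an early gene induced by cAMP, had 6.02, 21.2 and 10.3 CPM against 4.25, 9.29 and 4.66 CPM, with replicate 2 the highest of each group as for Igfbp1 and Irs2. Its log2 fold change of -1.06 was -0.43 without control replicate 2. Ppargc1b, the relative of Ppargc1a, had 1.60, 1.53 and 2.16 CPM against 0.872, 1.17 and 0.841 CPM, without overlap, and a log2 fold change of -0.87 (edgeR, adjusted p = 0.523).

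Many of these genes vary with feeding and time of day, and the hour at which the livers were taken is not given in the sources used here. The study took serum and bile from non-fasted mice and names no separate feeding state for the livers, so no fasted liver was set beside them. Of 15 genes of the circadian clock 14 were tested and 0 were called by edgeR, DESeq2 or limma-voom, with 3 higher, 11 lower, a median log2 fold change of -0.14 and 5 at an unadjusted p-value under 0.05, of which Per1 was higher and 4 were lower, against the same 8.37%. The median was -0.28 without control replicate 3 and -0.25 without esculetin replicate 1. Npas2 had 14.8, 9.42 and 8.97 CPM in control and 6.81, 6.82 and 6.60 CPM in esculetin livers, without overlap, a log2 fold change of -0.71 (edgeR, adjusted p = 0.334) that was -0.44 without control replicate 1. Cry1 had 31.6, 29.4 and 24.6 CPM against 20.5, 21.8 and 23.9 CPM, also without overlap, and Nr1d1 10.0, 16.4 and 24.8 CPM against 11.2, 12.0 and 6.79 CPM, with overlap. The part of the clock genes in the values of Pdk4 and of the other 8 genes was not tested.

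**Figure D3:**
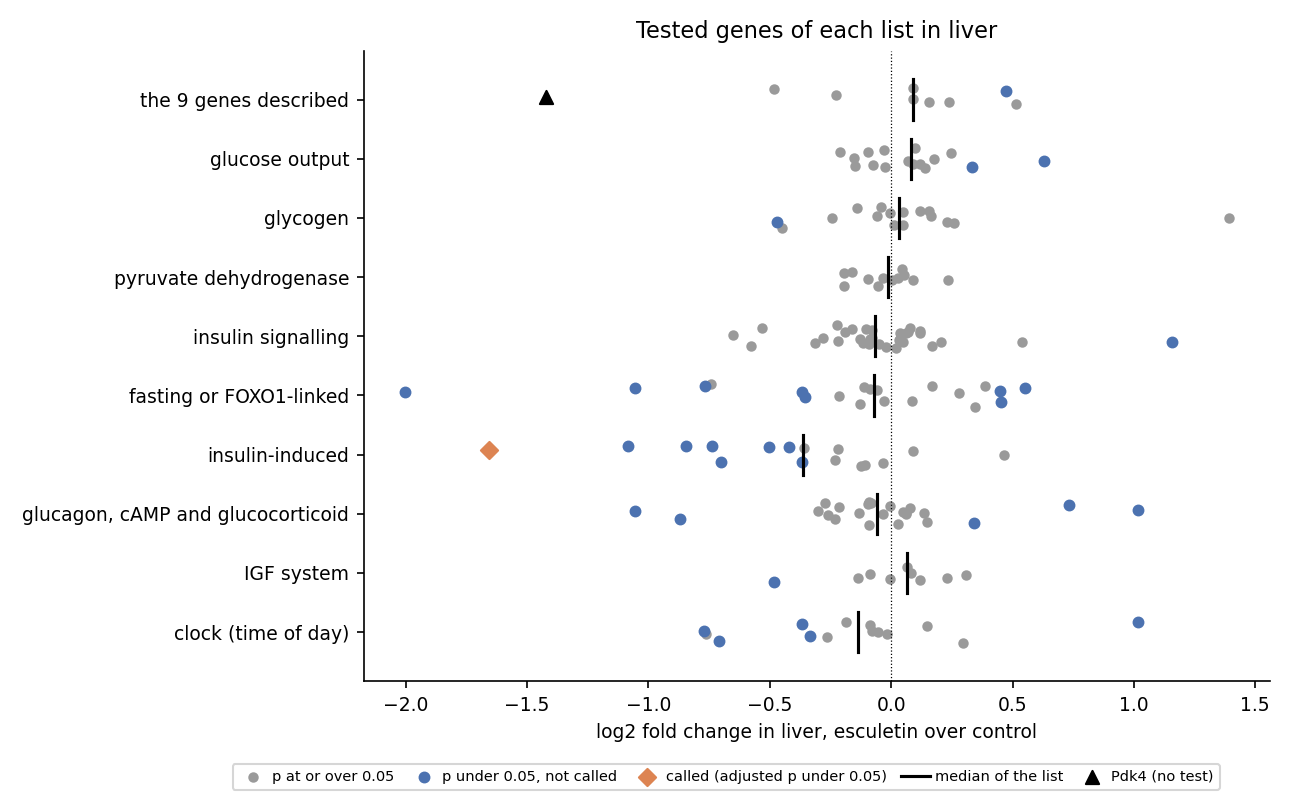
Log2 fold change in liver (x axis) of every tested gene of the 10 lists, 1 row a list, with grey points for an unadjusted edgeR p-value of 0.05 or more, blue for less, an orange diamond for a called gene, a black triangle for Pdk4, which carries no test, and a black line for the median of the list. The row of insulin-induced genes is centred at -0.36, with Angptl8 at -1.66 as the called gene, and the other rows are centred between -0.14 and 0.09.

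In the macrophage line only Foxo1 of the 9 genes passed the filter. G6pc1, Igfbp1 and Irs2 had 0 counts in all 6 libraries, and Pck1, Fbp1, Pdk4, Irs1 and Ppargc1a had at most 3 counts in any library. A floor of 3 counts, the level that a count of 0 allows, was 0.146 to 0.220 CPM in these libraries, so no fold change is given for these 8 genes. The hepatocyte markers Ttr, Apoa1, Serpina1a, Cps1 and Tat were also at 0 in all control cells.

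Foxo1 was lower with esculetin in the cells. It had 37.7, 35.9 and 39.3 CPM in the control cells, from 727, 667 and 807 counts, and 28.7, 22.9 and 20.8 CPM in the esculetin cells, from 392, 336 and 373 counts. All 3 esculetin samples lay below all 3 control samples. The mean fell from 37.6 ± 1.69 to 24.1 ± 4.08 CPM (SD, n = 3), 0.640 times the control level, with a log2 fold change of -0.64 (SE 0.13; adjusted p = 0.00123, edgeR). The call held in 6 of 6 fits with 1 library left out, between -0.79 and -0.55. Beside it, 57.7% of the 13277 tested genes were called and 29.0% were called lower in this line, so the call of Foxo1 is one among many.

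Genes of the related lists were called in both directions in the cells. In the insulin signalling list 14 of 29 tested genes were called, 9 higher and 5 lower, against 57.7% of all genes, and Foxo3, the relative of Foxo1, had a log2 fold change of -1.19 (edgeR, adjusted p = 6.44e-07). Of 14 tested genes of the glucose output list, 11 were called, 1 higher and 10 lower, where 29.0% of all tested genes were called lower. The list keeps its name from the liver. Pck1, G6pc1 and Fbp1 were at 3 counts or fewer in these cells, so these calls are not read as glucose production. Mdh1 had 500, 556 and 532 CPM in control and 259, 255 and 257 CPM in esculetin cells, and Got1 187, 207 and 200 CPM against 104, 106 and 110 CPM. Pck2, the mitochondrial relative of Pck1, had the smallest p-value of that list, with a log2 fold change of -2.11. Foxo3 and Pck2 were named after their values were seen, as relatives of listed genes.

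The pyruvate dehydrogenase list had 10 of 13 tested genes called, 2 higher and 8 lower, where 57.7% of all tested genes were called and 29.0% called lower. Pdk1 was higher, at 231, 209 and 226 CPM in control and 310, 283 and 277 CPM in esculetin cells, and Pdk2 was lower, at 13.3, 17.3 and 18.5 CPM against 5.71, 4.43 and 4.96 CPM. The insulin-induced list had 8 of 10 called, all lower, against the same 29.0% called lower. Among them was Scd1 at 466, 502 and 487 CPM against 224, 211 and 154 CPM, while Angptl8 did not pass the filter in the cells. Called genes numbered 10 of 12 for glycogen, 9 of 13 for the fasting list, 14 of 20 for glucagon, cAMP and glucocorticoid action, 4 of 4 for the insulin-like growth factor system and 8 of 13 for the clock, to be read against 57.7% of all tested genes. Igf1 was higher, at 1.87, 1.56 and 1.56 CPM in control and 7.98, 14.6 and 19.7 CPM in esculetin cells.

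**Figure D4:**
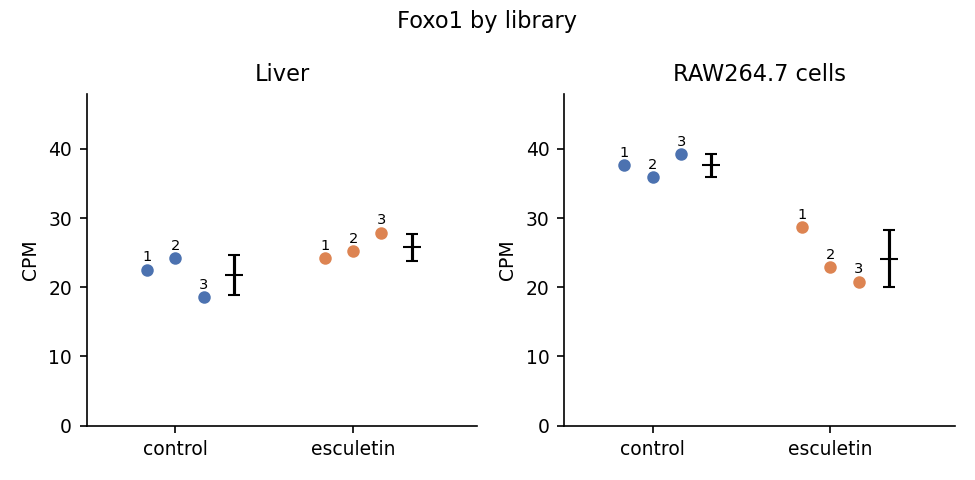
Foxo1 in liver (left) and in RAW264.7 cells (right), in CPM on the same linear axis, by library, with blue for control, orange for esculetin, the replicate number above each point and the mean and SD of 3 libraries in black. The liver groups overlap at 24.2 CPM, and the esculetin cells, at 20.8 to 28.7 CPM, lie below the control cells, at 35.9 to 39.3 CPM; the tables were normalized separately.

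The effect of esculetin on Foxo1 was compared between the cells and the liver in 1 model of all 12 libraries. The difference of the log2 fold changes, cells minus liver, was -0.92 (SE 0.20; adjusted p = 0.00248, edgeR), from a log2 fold change of -0.64 in the cells and 0.24 in the liver when each was fitted alone. It held in 12 of 12 fits with 1 library left out, from -1.08 to -0.76. In this model 27.1% of 15709 tested genes were called. The liver and the cells differ in the route of exposure, in vehicle, in dose, in time and in the other treatment given, so the difference is one between 2 experiments. For the other 8 genes no such difference could be given, because the cells did not express them above the floor.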

How the data were processed

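Total RNA of liver pools and RAW264.7 cells was extracted with Trizol, made into libraries with the NEBNext Ultra RNA kit and sequenced as paired ends on a NovaSeq. The authors deposited raw counts per gene locus, made, per the methods and the submitters' processing notes, with HISAT2 2.2.1 on GRCm39 and featureCounts. Strand setting, handling of multiply mapped reads and annotation release are not given in the sources used here. Of 55357 identifiers 54749 matched GENCODE, which gave symbols and coordinates.

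Each table was fitted alone with edgeR 4.0.16 (quasi-likelihood, filterByExpr, TMM factors, treatment as the only term) in R 4.3.3. P-values are two-sided and Benjamini-Hochberg adjusted over all tested genes, and genes under 0.05 are called. An exact permutation test of 3 against 3 cannot go below 0.1. SEs were obtained by dividing each log2 fold change by the root of its F statistic. The difference of effects used a 4-group model. Fits were tested on simulated counts. Alternatives were other scalings and filters, DESeq2 1.42.0, limma-voom (limma 3.58.1), the study's stated criterion, a replicate block and leaving out each library.

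Members, lists and naming rule were chosen with earlier results of these data known. The rule named the 9 genes, every called gene of a list or up to 4 with the smallest liver p-values, 5 genes most like Pdk4, and markers. Some genes that the rule named are not reported here, though they stay in the counts and medians. Replicates of a group differed by more than counting noise, with a chi-square per gene of 2.92 to 78.9. CPM hold counting and biological error together.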

Additional observations from a re-analysis of the deposited data

Results flagged for a closer look

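The effect of esculetin on Foxo1, the transcription factor gene that insulin signalling restrains, differed between the cells and the liver in the 4-group edgeR model, by -0.92 on the log2 scale, cells minus liver. Foxo1 was lower in 3 of 3 esculetin cell samples than in any control cell sample, and in the liver its groups overlapped. Liver and cells were separate experiments that differ in vehicle, dose, duration and the other treatment given, and these cannot be told apart from the tissue. The other 8 genes could not be compared in this way, and groups of 3 samples were not searched for single outlying samples.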

How the results depend on the processing

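The number of genes called in liver was 11 and depended on the setting. It was 0 with scaling to library size alone (1149 genes under 0.05 before adjustment), 339 with every detected gene kept, 98 with DESeq2 and 499 under the study's criterion (fold change over 1.5 at p under 0.05, unadjusted), and it ran from 0 to 31 with 1 library left out. The count was 0 without control replicate 2, esculetin replicate 1 or esculetin replicate 3, where 962, 769 and 624 genes were under 0.05 before adjustment. Of the 9 genes, 1 was called in liver, 0 with scaling to library size alone and 0 to 1 with 1 library left out. With every detected gene kept it was 2, where Igfbp1 joined Pdk4, beside 339 of 22343 tested genes. Since Pdk4 was chosen on its liver difference, nothing is read from these counts. With every detected gene kept, more genes of the liver lists were called as well. The called genes went from 1 to 7 for insulin-induced genes and from 0 to 3 for the glucagon and the clock lists. They went from 0 to 2 for the fasting list and from 0 to 1 each for glucose output and insulin signalling. Applied to the limma-voom fit run here, the study's criterion gave 5041 genes in the cells against 7667 in the main fit. The study itself reported fewer genes for these cells than 5041. The causes of these differences were not tested. With 1 library left out, the log2 fold change in liver changed sign for G6pc1 (-0.013 to 0.40, lowest without esculetin replicate 3), Irs2 (-0.12 without control replicate 3 and -0.05 without esculetin replicate 2, up to 0.33) and Ppargc1a (-0.91 to 0.14, highest without control replicate 1), none of them called. Over all alternatives run, and not only those with 1 library left out, 602 values of named genes kept direction and side of the threshold. Another 34 became called and 8 lost their call. The call of Foxo1 in the cells and its difference from the liver held under all alternatives run.

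With the replicate block, 123 of 12813 tested genes were called in liver and 2 of the 9, Igfbp1 and Pdk4, and in the cells 7982 genes. Whether the numbers pair the samples is not settled by the values. Same-numbered samples deviated together with r of 0.14, -0.0053 and 0.10 in liver and 0.16, -0.03 and 0.08 in cells. The values of 0.14 and 0.10 in liver and of 0.16 in cells were the highest of any pair of numbers. Replicate 2 of both tables and esculetin replicate 3 of the cells correlated better with another number. Depth limits Ppargc1a, at 14 to 66 counts per liver library, and the 8 genes at 3 counts or fewer in the cells.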
